A study of Mus musculus with 6 samples.

Results

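The TNF ligand and TNF receptor superfamilies were examined in mouse articular chondrocytes treated with interleukin-1β (IL-1β). Members were chosen by name alone: every gene symbol of the array's platform that starts with Tnfsf or Tnfrsf and a digit, and Tnf, Lta, Ltb, Fas, Fasl, Cd40, Cd40lg, Cd27, Cd70 and Ltbr, with Ngfr left out. Of 41 symbols that meet this rule, 39 had a probe set of their own among 22180 genes measured in all, and none of the 39 had a second one. Tnfsf12 and Tnfsf13, which encode TWEAK and APRIL, lie next to each other on chromosome 11 and share 1 probe set with another symbol, so that no value is given for either. Wild-type ICR mice 5 days old gave the cells, which were digested from the cartilage of femoral condyles and tibial plateaus and grown as a monolayer in serum. The 2 groups, untreated cells and cells given IL-1β and harvested after 24 h, hold 3 arrays each, numbered as biological replicates. The methods name 1 ng/ml as the usual amount of IL-1β, and the labels give none. Neither source says how many mice stand behind an array, so the p-values measure only the spread between these arrays. Values are log2 signals after robust multiarray averaging (RMA), a background correction and normalization across arrays.

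Ligands of the TNF superfamily are mostly type II membrane proteins that act as trimers on the cell surface or after shedding, and their receptors share cysteine-rich repeats outside the cell. Receptors with a cytoplasmic death domain recruit adaptors such as TRADD or FADD and can lead to NF-κB activation or to caspase-dependent death. Receptors without it bind TRAF proteins, and decoy receptors take up ligand without passing on a signal. In cartilage and bone the family is best known for TNF itself, a proinflammatory cytokine that acts beside IL-1β in arthritis, and for RANKL with its decoy osteoprotegerin, which set osteoclast formation.

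IL-1β-treated chondrocytes had higher levels of 12 of the 39 members, and 0 fell. They were 4 of the 5 death domain receptors (Fas, Tnfrsf1a, Tnfrsf10b and Tnfrsf21), 3 of 15 other signaling receptors (Tnfrsf1b, Tnfrsf9 and Tnfrsf14), 2 of 3 decoy receptors (Tnfrsf11b and Tnfrsf23) and 3 of 15 ligands (Tnfsf9, Tnfsf11 and Tnfsf15). Fas rose most, 5.61-fold, followed by Tnfrsf9 at 3.04-fold and Tnfrsf1b at 2.49-fold. Tnf itself lay under the background level in both groups. A gene passed where limma gave an adjusted p under 0.05, with the Benjamini-Hochberg method applied across the 22180 genes. SE below is the standard error of a log2 fold change. Of all genes, 8.32% were higher and 8.88% lower by this rule, against 30.8% and 0% of the members. The 12 were also the only members with an unadjusted p under 0.05 in the upward direction, and 1 member, Cd40lg, had one in the downward direction. With the study's further limit of 1 on the log2 fold change, 5 members were higher (Fas, Tnfrsf9, Tnfrsf1b, Tnfsf9 and Tnfsf11), beside 2.25% of all genes, and 0 were lower, beside 1.45%. The median log2 fold change was 0.02 over the 39 members and -0.02 over all genes. Among genes with 1 or both means above the background level given below, it was 0.44 for 23 members and -0.02 for all such genes. A treated mean alone can bring a gene past that filter. The methods' t-test called 8 of the 12 after adjustment and did not call Tnfrsf11b (adjusted p = 0.0577), Tnfrsf14 (0.105), Tnfrsf1a (0.0561) or Tnfsf11 (0.0532), and it called 0 lower.

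**Figure D1:**
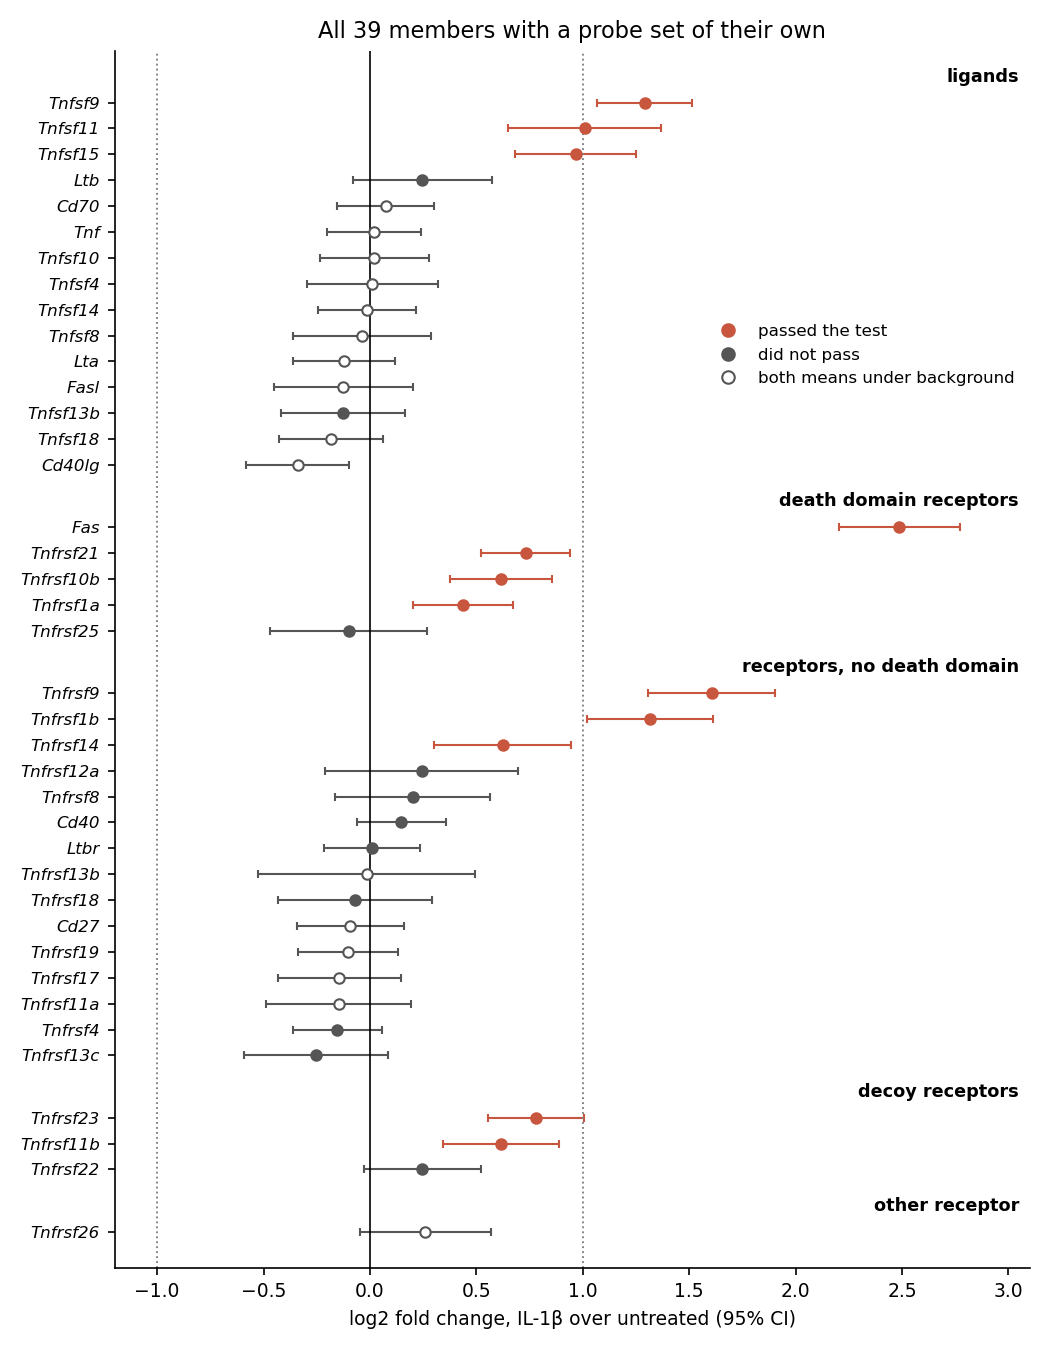
Log2 fold change of each member, IL-1β over untreated, with its 95% confidence interval from limma, grouped by class. Red points passed the test, open points had both group means under the background level, and dotted lines mark the limit of 1; the 12 red points all lie to the right of 0, from 0.44 for Tnfrsf1a to 2.49 for Fas.

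The background level was 4.572 on the log2 scale, the 95th percentile of mean signals of 1443 probe sets for smell, pheromone and taste receptor genes. Of the members, 16 had both group means under it, 2 had 1 mean under it and 21 lay above it in both groups. Array medians were 4.66 to 4.73, and arrays correlated across probe sets at 0.981 to 0.990 within a group and 0.965 to 0.977 between groups. All 9 listed genes known to respond to IL-1β rose, among them Mmp3, Nos2 and Il6. The list was set with earlier results of these data known, so it is no independent check of the labels. The chondrocyte identity of the cells was checked against 17 markers, all above background in both groups. Of these, 16 fell with IL-1β, from 1.42-fold lower for Col2a1 to 9.84-fold lower for Matn1. In a bulk sample, fewer cells of a type and less RNA per cell cannot be told apart. All 8 measured markers of T and NK cells lay under background in both groups, with a summed linear signal of 115 to 129 without IL-1β and 116 to 125 with it. Among 11 macrophage markers, 6 lay under background in both groups, Ptprc and Itgam included, and 3 above it in both. Of these 3, Cd68 rose by 1.22 and Mertk fell by 0.50 on the log2 scale. Cx3cr1 (means 5.85 untreated and 6.14 treated) did not pass. Lyz2 (means 4.48 untreated and 4.81 treated) and Csf1r each had 1 mean under background and did not pass. The summed signal of the 11 was 354 to 386 without IL-1β and 405 to 433 with it. Of 10 fibroblast and synovial markers, 4 rose (Pdgfra, Fap, Pdpn and Col3a1) and Col1a2 fell, with a summed signal of 5476 to 6196 without IL-1β and 5749 to 6604 with it. The part of other cell types in the members' values was not tested.

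Stretches before the annotated starts of 4 members are shown as reference for the results that follow. They were taken after their values were seen: Fas, Tnfrsf9 and Tnfsf11 each rose and hold a searched motif, and Tnf is the family's namesake, which stayed under background. Tnfrsf23 also rose and holds a TATAAA match, and is not shown. The sequences are RefSeq's for GRCm38.p6, 250 bases each, 5′ to 3′ toward the start, at chr19:34290409-34290658 on the plus strand (Fas), chr4:150927749-150927998 on the plus strand (Tnfrsf9), chr14:78308044-78308293 on the minus strand (Tnfsf11) and chr17:35202008-35202257 on the minus strand (Tnf). Capitals mark matches to TATAAA, to TGACTCA or TGAGTCA (the AP-1 motif) and to the NF-κB consensus of 10 bases, on either strand.
Fas: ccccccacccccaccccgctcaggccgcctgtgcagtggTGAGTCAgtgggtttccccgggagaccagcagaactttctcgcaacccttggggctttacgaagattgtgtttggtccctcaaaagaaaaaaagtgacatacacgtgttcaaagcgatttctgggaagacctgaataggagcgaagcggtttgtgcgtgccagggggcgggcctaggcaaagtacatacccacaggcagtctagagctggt
Tnfrsf9: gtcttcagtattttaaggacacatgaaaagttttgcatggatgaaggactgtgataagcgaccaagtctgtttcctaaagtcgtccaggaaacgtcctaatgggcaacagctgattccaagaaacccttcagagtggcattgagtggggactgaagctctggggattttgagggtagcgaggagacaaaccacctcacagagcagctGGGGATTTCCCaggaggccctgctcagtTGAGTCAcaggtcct
Tnfsf11: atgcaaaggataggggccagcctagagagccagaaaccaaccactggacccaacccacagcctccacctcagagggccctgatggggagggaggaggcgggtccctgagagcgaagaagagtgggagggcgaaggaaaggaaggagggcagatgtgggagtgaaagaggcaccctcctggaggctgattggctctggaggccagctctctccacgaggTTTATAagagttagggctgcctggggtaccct
Tnf: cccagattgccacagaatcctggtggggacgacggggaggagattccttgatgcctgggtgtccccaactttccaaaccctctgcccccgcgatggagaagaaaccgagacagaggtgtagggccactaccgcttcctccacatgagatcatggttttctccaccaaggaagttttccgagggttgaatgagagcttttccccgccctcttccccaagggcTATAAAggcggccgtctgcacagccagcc

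The Fas stretch holds an AP-1 match at position -211, counted from the start. In Tnfrsf9, overlapping NF-κB matches begin at positions -43 and -42, and an AP-1 match begins at -15. The starts used for Fas and Tnfrsf9 lie within the annotated spans of these genes, not at their edges. In Tnfsf11 a TATAAA match on the other strand begins at -32, and in Tnf a TATAAA match begins at -29. Promoters of 300 bases, 250 before the start and 50 after it, were on hand for 30 of the 39 members. The NF-κB consensus was in those of 4 of the 30 members, beside 9.55% of all 27025 genes with a promoter. By call, it was found in 1 of 9 members that rose (Tnfrsf9) and 3 of 21 that did not pass (Ltb, Tnfrsf8 and Tnfrsf25). AP-1 matches were in 5 of the 30 members (5.95% of all genes) and TATAAA in 6 (15.7% of all genes). By call, AP-1 matches were in 2 of 9 that rose and 3 of 21 that did not pass. TATAAA was in 2 of 9 and 4 of 21. A match is only a run of letters in this window, and none of the 3 motifs was tested as a site.

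Of the 5 death domain receptors among the members, all above background in both groups, 4 rose. Fas encodes the receptor for Fas ligand and recruits FADD and caspase-8. Its log2 signals were 6.80, 6.76 and 7.09 on untreated arrays 1 to 3 and 9.35, 9.23 and 9.53 on the IL-1β arrays 1 to 3. All 3 treated arrays lay more than 2 log2 units above every untreated array. The mean was 9.37 ± 0.15 (SD, n = 3) in treated and 6.88 ± 0.18 (SD, n = 3) in untreated cells, a log2 fold change of 2.49 (SE 0.13, limma adjusted p = 4.71e-06). Tnfrsf21, which encodes death receptor 6, rose 1.66-fold. Its untreated arrays were nearly equal at 7.37, 7.38 and 7.40, and the treated ones read 8.01, 8.18 and 8.15. Its log2 signal rose by 0.73 (SE 0.09, limma adjusted p = 0.000659). Tnfrsf10b, the mouse receptor for TRAIL that can signal death, rose 1.53-fold, from 8.83, 8.77 and 8.74 on untreated arrays to 9.47, 9.23 and 9.50 with IL-1β. The groups did not overlap, with IL-1β array 2 the lowest of the treated ones, and the log2 fold change was 0.62 (SE 0.10, limma adjusted p = 0.00366).

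Tnfrsf1a encodes TNFR1, the TNF receptor found on most cells, and had the smallest change among the 12. Its signals were 9.15, 9.16 and 9.39 without IL-1β and 9.61, 9.67 and 9.73 with it. The groups were apart, but untreated array 3 came close to the lowest treated array. The log2 fold change was 0.44 (SE 0.10, limma adjusted p = 0.0187), and Tnfrsf1a did not pass without untreated replicate 1 (adjusted p = 0.0692), untreated replicate 2 (0.0529) or IL-1β replicate 3 (0.0681). Over all alternatives its adjusted p was 0.00131 to 0.0809. Tnfrsf25 encodes death receptor 3, which binds TL1A, and was the member with a death domain that did not pass. It read 4.87, 5.46 and 5.09 untreated and 5.26, 4.98 and 4.88 treated, with overlapping groups and a log2 fold change of -0.10 (95% interval -0.47 to 0.27).

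**Figure D2:**
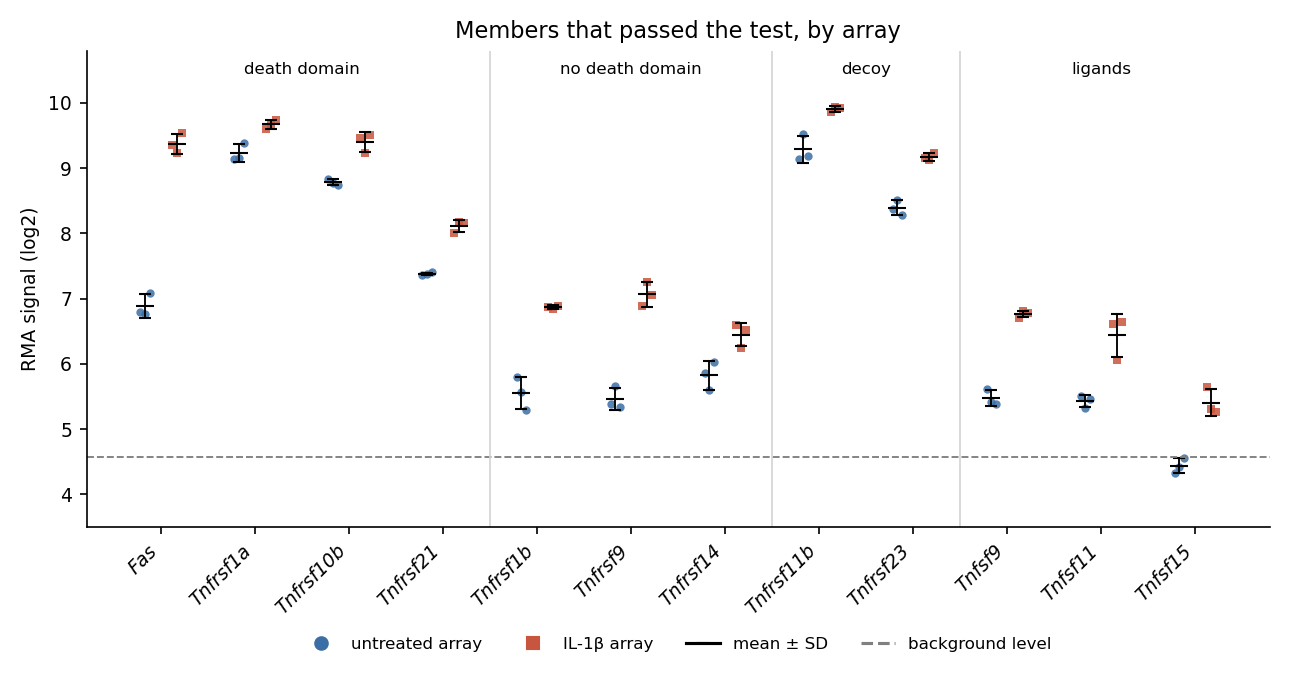
RMA log2 signal of the 12 members that passed, for each of 3 untreated (circles) and 3 IL-1β (squares) arrays, with mean ± SD; the dashed line is the background level of 4.572. In each of the 12 genes every treated array lies above every untreated one, and Tnfsf15 is the gene whose untreated arrays lie under the dashed line. The 12 were chosen by a test on these same arrays, so their separation is no further evidence. Cd40, not shown, was also separated and did not pass, and the share of all genes so separated was not counted.

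Among the signaling receptors without a death domain, Tnfrsf9 changed most. It encodes 4-1BB, a costimulatory receptor best known on activated T cells. All 8 measured T and NK cell markers lay under background in both groups, and which cells gave the Tnfrsf9 signal was not tested. Untreated arrays read 5.39, 5.66 and 5.34 and treated arrays 6.88, 7.26 and 7.06. Array 2 was the highest of its group both with and without IL-1β. The log2 fold change was 1.61 (SE 0.13, limma adjusted p = 6.32e-05). Tnfrsf1b encodes TNFR2, the TNF receptor that binds TRAF2 directly and is more restricted to certain cell types than TNFR1. It read 5.80, 5.57 and 5.30 without IL-1β and 6.87, 6.84 and 6.89 with it, so that the treated arrays were close together and the untreated ones were spread. IL-1β raised the log2 signal by 1.31 (SE 0.13, limma adjusted p = 0.000176). Tnfrsf14 encodes HVEM, a receptor for LIGHT and a partner of BTLA, and rose 1.54-fold. Its untreated arrays read 5.85, 5.59 and 6.03 and its treated arrays 6.59, 6.24 and 6.51, with untreated array 3 not far below the lowest treated array. Its log2 fold change of 0.62 (SE 0.14, limma adjusted p = 0.0153) did not pass without IL-1β replicate 1 (adjusted p = 0.0686) or replicate 3 (0.0537), and its adjusted p over all alternatives was 0.00399 to 0.105.

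Both TNF receptors rose, Tnfrsf1b with the larger log2 fold change. The within-array difference of Tnfrsf1b minus Tnfrsf1a on the log2 scale was -3.68 ± 0.38 (SD, n = 3 arrays) without IL-1β and -2.80 ± 0.06 (SD, n = 3 arrays) with it, a shift of 0.88 with all treated arrays above all untreated ones. The exact two-sided permutation test gave p = 0.1, which is the smallest that 3 against 3 arrays allow (0.2 after Benjamini-Hochberg adjustment over the 4 pairs compared, which were chosen after their values were seen).

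The other 12 receptors of this class did not pass, and 7 of them lay above background in both groups. Ltbr encodes the lymphotoxin β receptor. Its arrays read 8.17, 8.35 and 8.17 without IL-1β and 8.19, 8.34 and 8.18 with it, overlapping groups whose 95% interval for the log2 fold change, -0.22 to 0.24, covers 0. Tnfrsf12a encodes Fn14, the receptor for TWEAK. It read 7.27, 8.06 and 7.45 untreated and 7.70, 8.07 and 7.75 treated, with array 2 the highest in both groups and a log2 fold change of 0.24 (95% interval -0.21 to 0.70), which does not exclude a change of the size seen for Tnfrsf14. Cd40, a costimulatory receptor of antigen-presenting cells, read 4.85, 4.92 and 5.01 untreated and 5.02, 5.12 and 5.09 treated. Its treated arrays all lay above the untreated ones by a small margin, and the log2 fold change of 0.15 did not pass (limma adjusted p = 0.366). Tnfrsf4, which encodes OX40, a costimulatory receptor of T cells, showed the opposite order, with 5.14, 4.99 and 5.14 untreated, 4.92, 4.99 and 4.91 treated and a log2 fold change of -0.15 (limma adjusted p = 0.343). The remaining 3 were Tnfrsf8 (CD30), Tnfrsf13c (the BAFF receptor) and Tnfrsf18 (GITR), with overlapping groups and log2 fold changes of 0.20, -0.25 and -0.07. Under background in both groups were Tnfrsf11a (RANK), Tnfrsf13b (TACI), Tnfrsf17 (BCMA), Tnfrsf19 (TROY) and Cd27, with group means from 3.33 to 4.52.

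Decoy receptors rose in 2 of 3 cases. Tnfrsf11b encodes osteoprotegerin, a secreted receptor that binds RANKL and also TRAIL. Untreated arrays read 9.14, 9.53 and 9.19 and IL-1β arrays 9.85, 9.93 and 9.92. The treated arrays lay close together, and untreated array 2 stood closest to them. The rise was 0.62 on the log2 scale (SE 0.12, limma adjusted p = 0.00725), or 1.53-fold. Tnfrsf23 and Tnfrsf22 encode mouse decoy receptors for TRAIL and lie side by side on chromosome 7 with Tnfrsf26. Tnfrsf23 rose 1.72-fold, from 8.38, 8.51 and 8.28 on untreated to 9.16, 9.12 and 9.24 on treated arrays (log2 fold change 0.78, SE 0.10, limma adjusted p = 0.0007). Tnfrsf22 read 6.09, 5.93 and 5.95 untreated and 6.19, 6.46 and 6.07 treated, overlapped and did not pass (log2 fold change 0.25, 95% interval -0.03 to 0.52). The difference of Tnfrsf23 minus Tnfrsf22 shifted by 0.53 on the log2 scale, with the treated arrays above the untreated ones and an exact two-sided permutation p of 0.1 (0.2 after adjustment over the 4 pairs). These 2 genes are close paralogs, and how far their probes can be told apart was not tested. Tnfrsf26 lay under background in both groups.

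Ligands were mostly low. Of 15 measured, 10 had both means under background: Tnf, Lta, Fasl, Cd40lg, Cd70, Tnfsf4 (OX40 ligand), Tnfsf8 (CD30 ligand), Tnfsf10 (TRAIL), Tnfsf14 (LIGHT) and Tnfsf18 (GITR ligand). Most of these are products of lymphocytes or other leukocytes. Tnf read 4.35, 4.51 and 4.28 on untreated arrays and 4.37, 4.41 and 4.43 on IL-1β arrays. The groups overlapped, the log2 fold change was 0.02, and its 95% interval of -0.20 to 0.24 is for signals under background and does not exclude a change that this probe set cannot register. Fasl, the gene of the ligand for Fas, read 3.59, 4.12 and 3.81 untreated and 3.66, 3.85 and 3.64 treated, and its groups overlapped. Cd40lg, which encodes the ligand of CD40, read 2.64, 2.83 and 2.76 without IL-1β and 2.29, 2.55 and 2.36 with it. All its treated arrays were lower, far under background in both groups, and its log2 difference of -0.34 did not pass (limma adjusted p = 0.0612). It passed with replicate number as a block (adjusted p = 0.0348), without IL-1β replicate 2 (0.0366), with array weights (0.00901) and with arrays centered on their medians (0.0351). Its adjusted p over all alternatives was 0.00901 to 0.22.

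The 3 ligands that rose were Tnfsf9, Tnfsf11 and Tnfsf15. Tnfsf9 encodes the ligand of 4-1BB. Its signals were 5.61, 5.42 and 5.39 without IL-1β and 6.70, 6.80 and 6.78 with it, with the treated arrays close together. The log2 fold change was 1.29 (SE 0.10, limma adjusted p = 4.39e-05), or 2.45-fold. Tnfsf11 encodes RANKL, the cytokine that drives osteoclast differentiation through RANK. Untreated arrays read 5.50, 5.32 and 5.46, and IL-1β arrays read 6.61, 6.06 and 6.64. Array 2 was the lowest in both groups, and the treated group was spread more widely than the untreated one. The mean was 6.44 ± 0.33 (SD, n = 3) in treated and 5.43 ± 0.10 (SD, n = 3) in untreated cells, a 2.01-fold rise with a log2 fold change of 1.01 (SE 0.16, limma adjusted p = 0.00234). This value lies just past the limit of 1, and its 95% interval of 0.65 to 1.37 spans that limit. Tnfsf15 encodes TL1A, the ligand of death receptor 3. Its untreated arrays were under background at 4.33, 4.42 and 4.56 and the treated ones above it at 5.64, 5.31 and 5.26. Set against the background level, Tnfsf15 was at least 1.78-fold higher, and the difference of the means as measured was 0.97 on the log2 scale (SE 0.13, limma adjusted p = 0.000793), just inside the limit of 1. Ltb, a subunit of the membrane-bound lymphotoxin trimer, read 4.83, 5.16 and 4.58 untreated and 5.08, 5.16 and 5.05 treated, overlapped and did not pass (log2 fold change 0.25, 95% interval -0.08 to 0.57). Tnfsf13b, which encodes BAFF, a survival factor of B cells, had an untreated mean just above and a treated mean just under background, and its groups overlapped (limma adjusted p = 0.607).

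Ligands were then set beside receptors they are known to bind, in a list of 25 pairs with both genes measured. The list does not hold every known pair, and Lta with Tnfrsf14 is not in it. In 9 pairs the receptor rose while both means of the ligand were under background: Tnf and Lta with Tnfrsf1a and Tnfrsf1b, Fasl with Fas, Tnfsf10 with Tnfrsf10b, Tnfrsf11b and Tnfrsf23, and Tnfsf14 with Tnfrsf14. Ligand and receptor both rose in 2 pairs, Tnfsf9 with Tnfrsf9 and Tnfsf11 with its decoy Tnfrsf11b. In another 2 the ligand rose and the receptor did not pass, Tnfsf11 with Tnfrsf11a and Tnfsf15 with Tnfrsf25. Pairs share genes, so these counts are no independent observations, and binding or signaling was not measured.

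For the RANKL axis, Tnfsf11 and Tnfrsf11b rose together. Their within-array log2 difference, Tnfsf11 minus Tnfrsf11b, was -3.64, -4.21 and -3.73 on untreated arrays 1 to 3 and -3.24, -3.88 and -3.28 with IL-1β. Array 2 was the lowest of each group, and the groups overlapped. The mean shift toward Tnfsf11 was 0.39 (exact two-sided permutation p = 0.3, also 0.3 after adjustment over the 4 pairs). Between arrays of the same number it was 0.39, 0.34 and 0.45, of 1 sign in all 3. An exact two-sided sign-flip permutation test of those shifts, added after seeing the data, gave p = 0.25, the smallest that 3 numbers allow. All 4 pairs compared had 3 shifts of 1 sign and so the same sign-flip p of 0.25, which cannot tell them apart. Labels and methods do not say what the number stands for, so matching arrays by it is an assumption. Tnfrsf11a, the gene of the receptor RANK on osteoclast precursors, read 4.28, 4.80 and 4.49 untreated and 4.50, 4.45 and 4.18 treated, under background on every array but untreated array 2. Of 10 osteoclast markers, 7 lay above background in both groups and 3 under it in both (Calcr, Oscar and Atp6v0d2). Of the 7, Mmp9 rose (log2 fold change 1.09) and Ctsk fell by 0.44 on the log2 scale. Acp5, Nfatc1, Itgb3, Dcstamp and Ocstamp did not pass. The summed linear signal of the 10 was 403 to 407 without IL-1β and 399 to 462 with it. Osteoblasts and osteocytes are known sources of RANKL. Among their 7 measured markers, Ibsp rose (log2 fold change 1.46) and Sp7 fell by 0.54 on the log2 scale, Bglap, Dmp1 and Phex lay under background in both groups, and the summed signal was 222 to 292 without IL-1β and 298 to 373 with it. The part of such cells in the rise of Tnfsf11 was not tested. For 4-1BB and its ligand, both genes rose, and the difference of Tnfrsf9 minus Tnfsf9 overlapped between groups (shift 0.31, exact two-sided permutation p = 0.2, or 0.267 after adjustment over the 4 pairs). Its shifts between same-numbered arrays were 0.40, 0.22 and 0.33, again of 1 sign (exact sign-flip permutation p = 0.25).

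**Figure D3:**
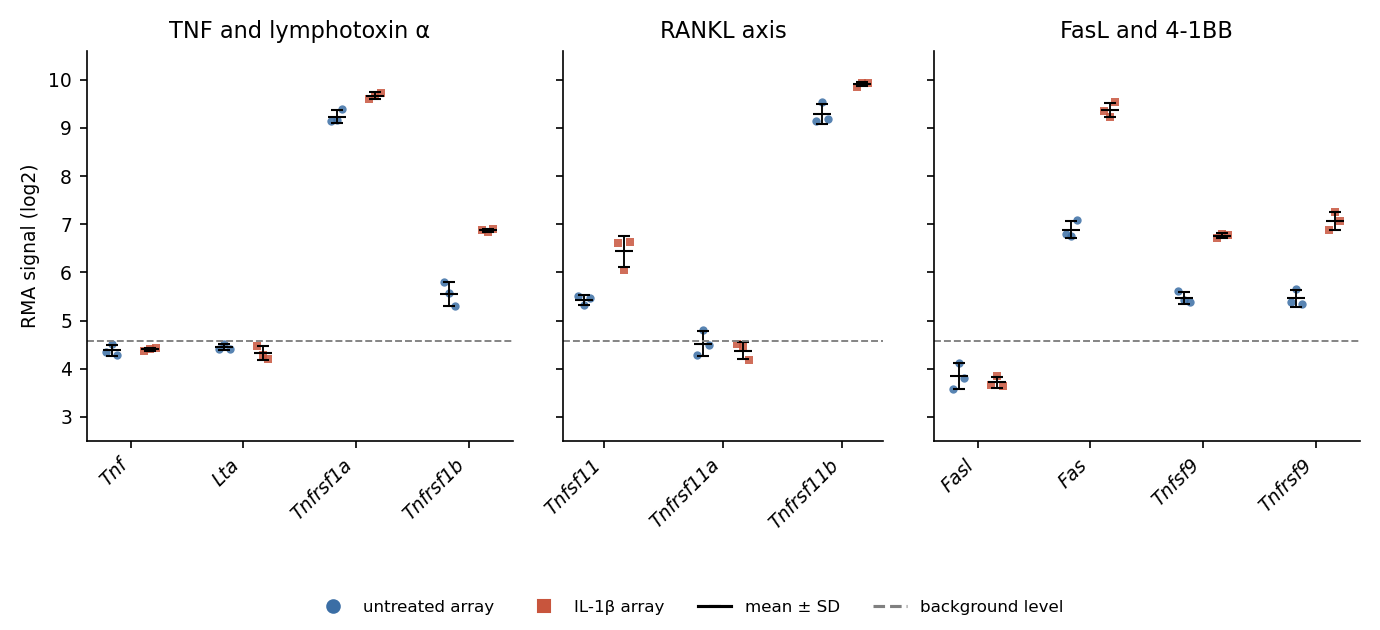
RMA log2 signal on each untreated (circles) and IL-1β (squares) array, with mean ± SD, for TNF and lymphotoxin α with their receptors (left), RANKL with RANK and osteoprotegerin (middle) and Fas ligand and 4-1BB ligand with their receptors (right). Tnf, Lta and Fasl stay under the dashed background level while Fas, Tnfrsf1a and Tnfrsf1b rise, and levels of different genes are not comparable on this axis.

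Many members lie in clusters, in several of which a gene that rose lies beside genes that did not pass. As 27 of the 39 members did not pass, such neighbors are common under any placement, and the placement was not tested. On GRCm38.p6 chromosome 17, Ltb (35194507 to 35196305), Tnf (35199367 to 35202007) and Lta (35203165 to 35205578) stand in a row, and none passed. On the same chromosome Tnfsf9 (57105287 to 57107758) rose while the adjacent ligand genes Cd70 and Tnfsf14 were under background. Chromosome 6 holds Cd27, Ltbr and Tnfrsf1a, and of these Tnfrsf1a rose. Chromosome 4 holds 9 members. Tnfrsf1b (145212368 to 145246870) rose beside Tnfrsf8 (145267132 to 145315164), which did not pass, and Tnfsf15 (63724600 to 63745059) rose beside Tnfsf8 (63831202 to 63861508), which was under background. Tnfrsf9 and Tnfrsf14 rose and Tnfrsf25, Tnfrsf4 and Tnfrsf18 did not pass. The ligand genes Tnfsf4, Tnfsf18 and Fasl on chromosome 1 were all under background in both groups.

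Genes that act downstream of these receptors were counted from lists drawn up by function. Among 19 measured adaptors and kinases, 6 rose and 1 fell. They were Traf1 (0.53 on the log2 scale) and Traf2 (0.59), which bind receptors without a death domain, the ubiquitin ligase genes Birc2 (0.84) and Birc3 (0.82), Tank (0.75), whose product binds TRAF proteins, and Traf3ip2 (1.50), whose product Act1 is best known as an adaptor of the IL-17 receptor and also acts at CD40 and the BAFF receptor. Tab1, a partner of the kinase TAK1, fell by 0.45 on the log2 scale (limma adjusted p = 0.0403) but kept its call of the 6 single-array omissions only on that of untreated replicate 1 (otherwise adjusted p = 0.0541 to 0.153). Without IL-1β replicate 1 the adjusted p of Birc2 was 0.0646, and without IL-1β replicate 3 that of Birc2 was 0.0762 and that of Traf1 0.0541. The ranges over all alternatives were 0.00459 to 0.159 for Birc2 and 0.00568 to 0.0727 for Traf1. Tradd and Fadd, the adaptors of death domain receptors, were singled out after their values were seen. Neither passed, with log2 fold changes of 0.15 and 0.04. Over the signaling, brake and death effector lists together, 13 genes rose and 1 fell, and with replicate number as a block 14 rose and 5 fell. Of all genes, 8.32% were higher and 8.88% lower, and of those with 1 or both means above background, as all genes of these lists have, 12.6% were higher and 13.4% lower.

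Of 11 measured brakes and ubiquitin enzymes of these pathways, 4 rose and 0 passed in the other direction from limma, with 2 lower at an unadjusted p under 0.05. Tnfaip3 (1.27 on the log2 scale) encodes the ubiquitin-editing enzyme A20, Tnip1 (1.28) encodes a partner of A20, and Cyld (0.82) encodes a deubiquitinase. Tnfaip3 did not pass by the methods' t-test (adjusted p = 0.0684, with 0.000306 the lowest over all alternatives). Tnip3, another partner of A20, had untreated arrays of 4.16, 4.21 and 3.87, under background, and treated arrays of 6.68, 6.56 and 6.85. It was at least 4.36-fold higher against the background level (limma adjusted p = 3.76e-06). The death effector list has 10 measured genes and also holds inhibitors of death, Cflar and Xiap among them. Of the 10, 3 rose and 0 passed in the other direction, with 1 lower at an unadjusted p under 0.05 from limma. These were Cflar (1.09 on the log2 scale), which encodes the caspase-8 inhibitor cFLIP, and the necroptosis genes Ripk3 (0.81) and Mlkl (0.56). Mlkl (limma adjusted p = 0.0408) lost its call on leaving out untreated array 1 or 3 or treated array 1 or 2 (adjusted p = 0.107 to 0.125). Casp8 itself, also singled out after its value was seen, had a log2 fold change of -0.33 and did not pass (limma adjusted p = 0.0632). It passed as lower with replicate number as a block (adjusted p = 0.0489), with the trended robust prior (0.0123) and with either filter on dim genes (0.0273 and 0.0279), and its adjusted p over all alternatives was 0.0123 to 0.18.

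TNF and several receptors of the family, TNFR1 and TNFR2 among them, are cut from the cell surface by the protease ADAM17. Of 8 genes of shedding, all above background in both groups, 2 rose and 2 fell, or 25% each way. Of all genes with 1 or both means above background, 12.6% were higher and 13.4% lower. At an unadjusted p under 0.05 from limma, 3 of the 8 were higher and 3 lower. These took in Adam10 (0.30 on the log2 scale) and Furin (-0.24), which did not pass. Rhbdf2 encodes iRhom2, which brings ADAM17 to the surface. It read 6.62, 6.56 and 6.61 untreated and 8.07, 7.88 and 8.01 treated, with no overlap and a log2 fold change of 1.39 (SE 0.09, limma adjusted p = 2.39e-05). Adam17 rose by 0.60 on the log2 scale (SE 0.12, limma adjusted p = 0.0085). Timp3, which encodes an inhibitor of ADAM17 in the matrix, fell by 0.44 on the log2 scale (SE 0.09, limma adjusted p = 0.00765). Sppl2b, which encodes an intramembrane protease, fell by 0.43 on the log2 scale (limma adjusted p = 0.0213) and lost its call on leaving out untreated array 2 or 3 or treated array 1 or 3 (adjusted p = 0.0596 to 0.0798). Shed protein was not measured.

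**Figure D4:**
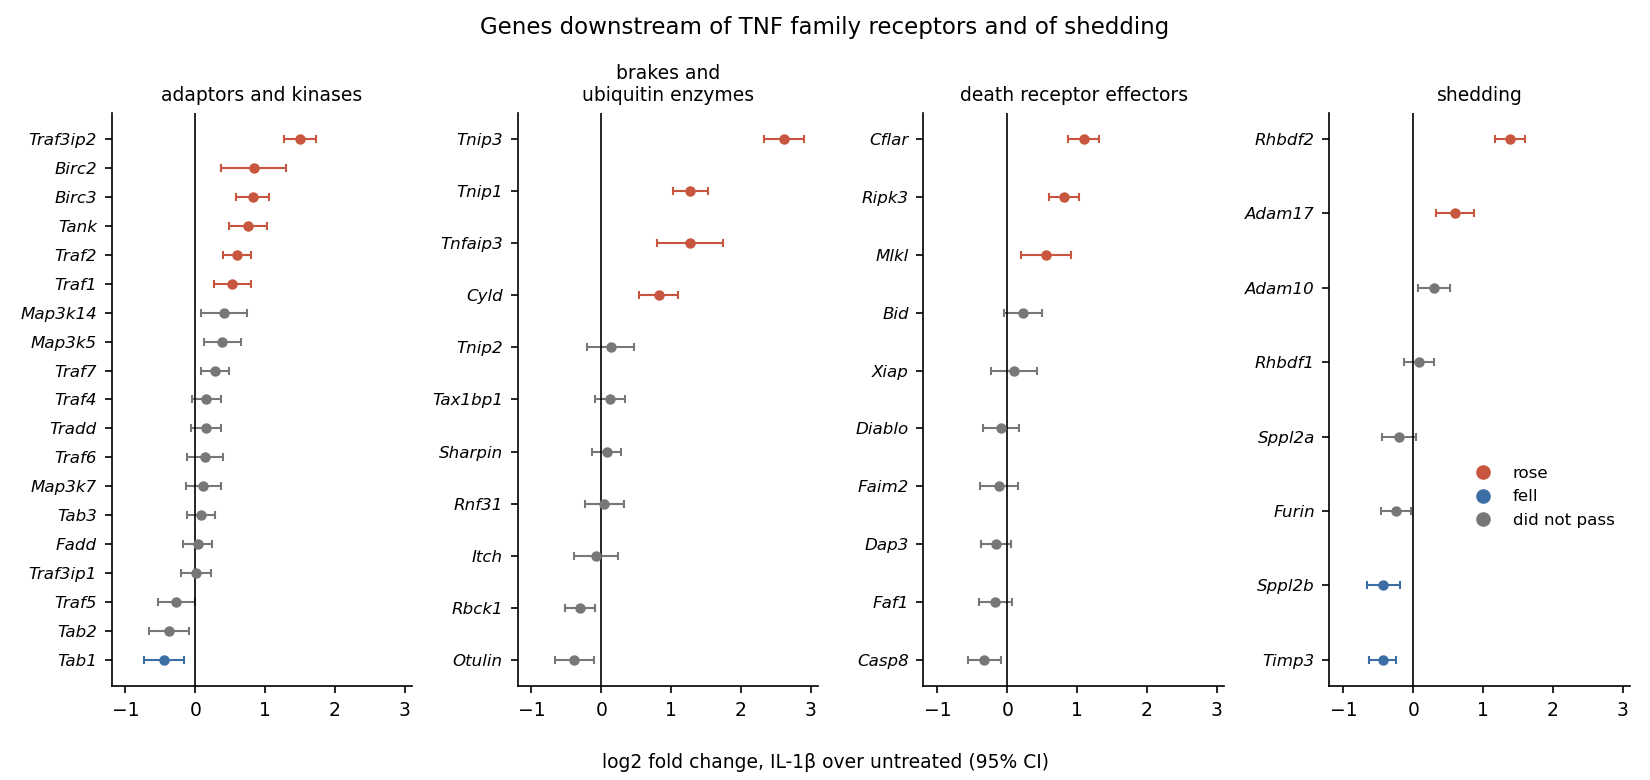
Log2 fold change, IL-1β over untreated, with its 95% confidence interval from limma. The measured genes are those of receptor signaling, its brakes, death receptor effectors (inhibitors of death included) and shedding. Red points rose, blue points fell and gray points did not pass, and Tnip3 stands farthest to the right at 2.62, a difference from untreated signals under background.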

How the data were processed

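RNA of 3 untreated and 3 IL-1β-treated chondrocyte cultures was hybridized to a mouse whole-transcript gene array. The deposited table holds log2 signals that the authors made by RMA; their genome build is not given in the sources used here. Of 41345 probe sets, 23521 name 1 gene, and symbols were updated through Entrez numbers. The brightest probe set stood for each of 22180 genes. limma 3.58.1 in R 4.3.3 (lmFit, eBayes) was fitted to all genes and tested on simulated data first. The members, the lists and the rule for naming genes were set with earlier results of these data known. The rule took every member (in full where it passed, briefly where it did not but had a mean above background, by name where both means were under it) and, per signaling list and direction, at most 6 genes that passed. Pairs of genes were compared by exact permutation tests. Deviations of same-numbered arrays correlated at r = 0.101, 0.379 and 0.189. Those of untreated array 1 and treated array 3 correlated at 0.226, and the other pairs of unlike number at -0.34 to 0.0116. The deviations were taken from group means, so values of both signs had to occur. Labels and methods do not say what the number stands for. Array number limits the precision. There were 17 alternative settings, 1 of them, like the sign-flip test, chosen after seeing the data. The study's methods name 4 replicates, and 3 per group were analysed here.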

Additional observations from a re-analysis of the deposited data

How the results depend on the processing

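The count of members that rose was 12 in 10 of the 17 alternatives, 10 with every probe set tested and 8 with the methods' t-test. It was 10 to 12 when each array was left out in turn, and 11 without replicate 2 of both groups, a setting chosen after seeing the data. The count that fell was 0, and 1 with replicate number as a block, with array weights and with arrays centered on their medians; it was 0 to 1 when each array was left out. That 1 was Cd40lg, whose signals lay under background in both groups, and the block, read as a pairing, changed no other call among the members. Of the 12 members that rose, 8 passed in all 17 alternatives and 10 passed without each array in turn, with Tnfrsf14 and Tnfrsf1a the exceptions. No member's call reversed. Of the signaling, brake and death effector genes, 1 fell, against 5 with the block, with the trended robust prior or with either filter on dim genes, 4 with array weights, 2 with median centering, 0 with every probe set tested and 0 to 1 when each array was left out. Signals under background limit what can be said of 16 members, Tnf among them. The cause of the differences between settings was not tested.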

Other observations

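Superfamily genes outside the naming rule were also read, together with Edaradd, which encodes an adaptor and no ligand or receptor. Of these 6 measured genes, Eda2r, which encodes a receptor for ectodysplasin A2, rose, and 0 fell. Of all genes, 8.32% were higher and 8.88% lower. At an unadjusted p under 0.05 from limma 0 of the 6 were lower. Relt came closest, with a log2 fold change of -0.36 (limma adjusted p = 0.185). Eda2r read 5.13, 5.14 and 4.68 on untreated arrays and 7.18, 6.83 and 7.18 with IL-1β, with no overlap. Its log2 fold change was 2.08 (SE 0.16, limma adjusted p = 3.9e-05). The ectodysplasin gene Eda and the receptor gene Edar were singled out after their values were seen. Eda read 5.59, 5.39 and 5.66 untreated and 5.62, 5.69 and 5.82 treated and did not pass. Edar had a log2 fold change of 0.45 and did not pass either (limma adjusted p = 0.141). Without untreated replicate 2 (adjusted p = 0.0387) and with array weights (0.0106) Edar passed as higher, and its adjusted p over all alternatives was 0.0106 to 0.393.

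Of 7 B and plasma cell markers, 5 lay under background in both groups and Sdc1, which other cells also express, rose by 1.62 on the log2 scale. Of 6 dendritic cell markers, 3 lay under background in both groups and Zbtb46 fell by 0.40 on the log2 scale. Cd209a (means 9.08 untreated and 8.94 treated) and Ccr7 lay above background in both groups and did not pass. Of 8 endothelial markers, 5 lay under background in both groups and Tek was at least 1.08-fold higher.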
